A study of Arabidopsis thaliana with 14 samples.

Results

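The micropylar endosperm is the region of the endosperm that lies at the micropyle, the pole where the pollen tube enters, and that surrounds the young embryo. Its 2 arrays were set against the 10 arrays of 5 other compartments captured from Arabidopsis thaliana seeds of the same stage, 12 of the 14 arrays of the series. The other 5 were the embryo proper, the peripheral endosperm, the chalazal endosperm, the general seed coat and the chalazal seed coat, each given equal weight. All probe sets of the array other than controls were taken, and 17336 of 22746 were bright enough to be tested. No measured value was used to choose the compartment, and the probe sets were filtered on brightness only. A probe set that is dim everywhere else could pass the filter only through the group in which it is bright.

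Every group came from seeds of the Ws-0 accession, with no mutant or treatment in any of them. The embryo proper held 2 to 8 cells at this pre-globular stage, siliques were 1.0 to 1.1 cm long, and the plants were 38 to 46 days old and kept at 20 °C under constant light. Each compartment was freed from paraffin sections of fixed seeds with a laser, and 2 to 5 ng of its total RNA were amplified and hybridized to the ATH1 expression array. The labels name 2 biological replicates per group without saying which plants they came from, so p-values measure the spread between these arrays only. The peripheral endosperm is called cellularized endosperm in its source label. In captured tissue of this kind, fewer cells of a type and less RNA per cell cannot be told apart.

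The endosperm grows from the fertilized central cell of the embryo sac and first divides its nuclei without walls. In Arabidopsis the micropylar region is the part where walls form first, close around the embryo. Endosperm at this pole is known for small secreted peptides that act on the embryo surface and for its place on the route by which nutrients reach the embryo, and type I MADS-box transcription factors are known as regulators of endosperm development.

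Values below are signal on the linear scale of the array, scaled by the submitters, and are given in the order of replicate 1 and replicate 2. A difference is on the log2(signal + 35.9) scale, micropylar mean minus the mean of the other 5 compartments, with its standard error (SE) and a limma p-value adjusted over all 17336 tested probe sets. A call needed an adjusted p below 0.05 together with a change of 2-fold or more. Since the added value is 35.9, a difference with 1 side under it is smaller than the ratio of the signals. Gene lists and families were all chosen with earlier results of these data known. Counts of their called members, given beside the share over all genes, therefore only describe them.

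The 2 micropylar arrays were less alike than those of most groups. Their correlation across tested probe sets was 0.858 and the SD between them 0.758 on the log2 scale, against 0.900 to 0.930 and 0.519 to 0.569 in the other groups except the chalazal endosperm (0.852 and 0.783). The fit uses 1 shared spread per probe set, so SEs for the micropylar arrays lean on groups with tighter pairs. The hybridization control spots averaged 122810 in the micropylar endosperm and 43338 to 91083 in the other groups, and the part of this gap in the results was not tested. Across probe sets, which are not independent, the micropylar mean correlated with the peripheral endosperm at 0.813, the embryo proper at 0.73, the chalazal endosperm at 0.685, the general seed coat at 0.601 and the chalazal seed coat at 0.558.

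The label was checked against 3 genes named as markers of this region, which were picked with earlier results of these data in view and so describe it without supporting it. TBL15, a member of a family of wall polysaccharide acetyltransferases, gave 52313 and 49869.8 on the micropylar arrays, 3960.5 and 2027 from the embryo proper, 796 and 821 from the peripheral endosperm, 1269.5 and 772 from the chalazal endosperm, 9.52 and 66.9 from the general seed coat and 128 and 10.9 from the chalazal seed coat. AGL57, a type I MADS-box gene, gave 5806 and 5565 on the micropylar arrays, 129 and 182 from the embryo proper, 41.8 and 21 from the peripheral endosperm, 182 and 50.6 from the chalazal endosperm, 17.8 and 42.8 from the general seed coat and 105 and 88.3 from the chalazal seed coat. AGL48, of the same family, gave 5708 and 4682, against 17.2 to 342 on the other 10 arrays. All 3 markers were brightest on the 2 micropylar arrays with no overlap, and their next brightest compartment was the embryo proper.

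Summed markers of other tissues were well below the level of the tissue each list belongs to, though for the seed coat and chalazal lists the embryo proper was lower. Sums are given from the lower to the higher array of a group. The 4 tested genes of a seed coat list summed to 1853 and 2634 on the micropylar arrays, against 38908 and 39759 for general seed coat, 1734 and 3822 for peripheral endosperm and 633.5 and 1384 for embryo proper. The 5 tested genes of a chalazal endosperm list summed to 2780 and 3188, against 70709 and 82787 in the chalazal endosperm, 776 and 878 in the embryo proper and 448.5 to 961 in the seed coat. The part of such signal in the results was not tested. The 2 tested genes of an embryo list, BBM and PHV, summed to 14.8 and 238, against 684 and 799 in the embryo proper, with BBM at 125 and 6.72 on the micropylar and 581 and 680.2 on the embryo arrays. No gene of the suspensor list had a probe set with a single gene name, so the suspensor, which the micropylar endosperm also borders, was not checked here.

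Against the mean of the 5, signal was called higher in the micropylar endosperm at 1709 probe sets, 9.86% of those tested, and lower at 1988, 11.5%. Of the 1709, the 2 micropylar arrays both lay above all 10 others at 1020 (5.88% of those tested), and of the 1988 both lay below all 10 at 446 (2.57%). Whether called or not, both lay above all 10 at 1280 probe sets (7.38%) and below all 10 at 520 (3%). Leaving out 1 array at a time lowered both counts most for micropylar replicate 2, to 943 and 1165. Without micropylar replicate 1 they were 1160 and 1496.

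Against single compartments the difference was smallest toward the peripheral endosperm, with 1049 probe sets higher (6.05% of those tested) and 1062 lower (6.13%). Toward the embryo proper 1937 were higher (11.2%) and 2197 lower (12.7%). Toward the chalazal endosperm 2302 were higher (13.3%) and 1781 lower (10.3%). The seed coat differed most, with 2020 higher (11.7%) and 2787 lower (16.1%) toward its general part and 2260 higher (13%) and 3070 lower (17.7%) toward its chalazal part. Of these 5 comparisons, only that with the chalazal endosperm held more probe sets higher than lower in the micropylar endosperm.

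**Figure D1:**
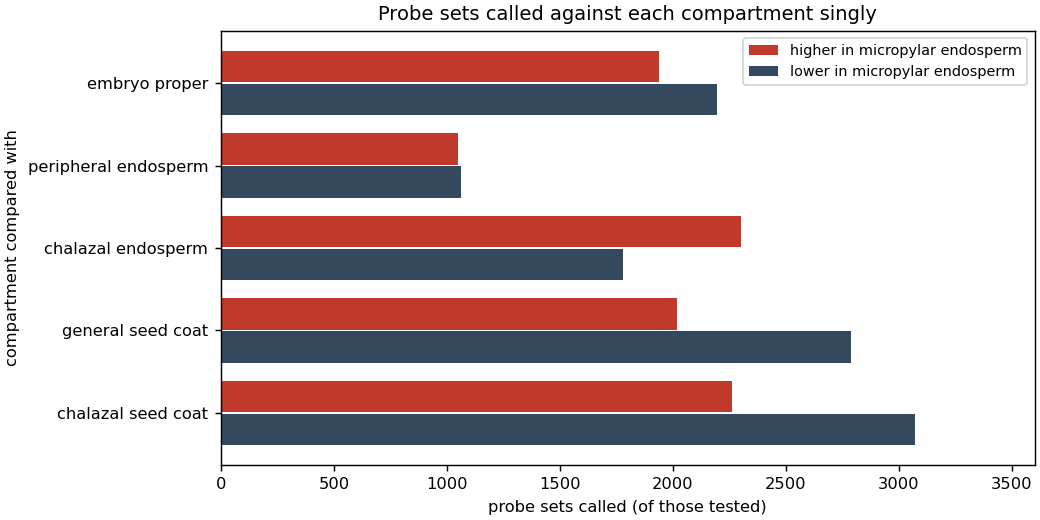
Number of probe sets called higher (red) and lower (dark) in the micropylar endosperm against each other compartment taken singly, of 17336 tested. The bars run from 1049 and 1062 toward the peripheral endosperm to 2260 and 3070 toward the chalazal seed coat.

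At 327 probe sets, 1.89% of those tested, the micropylar endosperm was higher than each of the other 5 singly, and at 79 (0.456%) it was lower than each. The latter count was 44 without either peripheral array and 122 without micropylar replicate 1, of which 49 were among the 79. The 327 had a median micropylar signal of 3520. Their micropylar mean exceeded the next brightest compartment by a median of 6.22-fold, from 2.05-fold to 80.2-fold, and by at least 10-fold at 101 of them. Together they held 18.6% and 19.1% of the summed signal on the 2 micropylar arrays. The same probe sets held 2.93% and 2.37% on the embryo proper arrays, 3.21% and 3.06% on the peripheral and 2.40% and 2.11% on the chalazal endosperm arrays. They held at most 1.47% on the general seed coat arrays, and 0.984% and 0.904% on the chalazal ones. These shares follow from the way the 327 were picked and carry no test.

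The next brightest compartment was the embryo proper for 106 of the 327 (32.4%), the peripheral endosperm for 79 (24.2%), the chalazal endosperm for 77 (23.5%), the chalazal seed coat for 35 (10.7%) and the general seed coat for 30 (9.17%). Over all tested probe sets these shares were 22.0%, 17.5%, 22.8%, 20.4% and 17.4% in the same order. Over the 1709 higher than the mean the order was another, with the peripheral endosperm next for 32.2%, the chalazal endosperm for 29.1% and the embryo proper for 19.5%. The signal of the 327 in the embryo proper was a median of 8.16% of the micropylar signal, with 4.99% to 15.0% for the middle of the distribution (25th to 75th percentile). The peripheral endosperm stood at a median of 9.11%, with 3.56% to 17.9% between the same percentiles, and the chalazal seed coat at 3.14%. Whether captured embryo tissue held micropylar RNA was not tested.

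Of the 327, 181 probe sets named 1 gene each, 180 genes in all, and 150 of these have an identifier but no symbol in the annotation used here. Their roles are therefore not stated. Of the 16 genes with the largest increases, 11 have an identifier only.

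Among probe sets naming 1 gene whose micropylar arrays both cleared the 10 others, the 16 largest increases ran from 6.18 to 7.50, with SEs of 0.31 to 0.54 and adjusted p from 1.33e-11 to 1.86e-08, and all 16 were called against each of the other 5 singly. In all, 26 called probe sets were higher by as much, and the 10 left out have no single gene name. AT4G23080 gave 21957 and 27819 on the micropylar arrays, 519 and 1091 from the chalazal endosperm, 574 and 191 from the embryo proper and 175 and 9.78 from the peripheral endosperm, and at most 1091 on any of the 10. AT4G20800 gave 24158 and 23474 against 3.66 to 762 on the other 10 arrays, a difference of 7.04 (SE 0.51, adjusted p = 2.96e-09). AT1G09550 gave 25545 and 26221 against 5.09 to 1441, and was higher by 7.02 (SE 0.45, adjusted p = 5.13e-10). Clear separation was a condition for naming these genes, and the mean of the chalazal seed coat was lowest in all 3. The annotation gives none of them a symbol.

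Genes with a symbol among the 16 were TBL15, LCR59, DD46, EXPA21 and TRI. LCR59, a small cysteine-rich peptide of the defensin-like class, gave 83589.8 and 87753 on the micropylar arrays, 7366 and 7123 from the embryo proper, 2842 and 1315 from the peripheral endosperm, 1096 and 856 from the chalazal endosperm, 286 and 290.2 from the general seed coat and 39.3 and 129 from the chalazal seed coat. It was higher by 6.61 (SE 0.31, adjusted p = 1.33e-11), and its signal stepped down from the embryo proper through the endosperm regions to the seed coat. EXPA21, an expansin that loosens walls, gave 63009 and 69024 against 3930.4 and 3704 from the embryo proper and 103 to 3930.4 over the 10 arrays, and was higher by 6.50 (SE 0.34, adjusted p = 3.97e-11). DD46, whose name comes from work on genes of the female gametophyte, gave 16311 and 14732 against 6.31 to 781, and was higher by 6.56 (SE 0.51, adjusted p = 9.21e-09). TRI, listed as a tropinone reductase, gave 10214 and 7731 against 2.29 to 419, a difference of 6.18 (SE 0.44, adjusted p = 2.59e-09). For 12 of the 16 the embryo proper was the next brightest compartment, for 3 the chalazal endosperm and for 1 the peripheral endosperm.

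The remaining 8 of the 16 were AT5G25410, AT4G10210, AT1G56620, AT1G64830, AT5G61470, AT2G19150, AT2G32360 and AT2G30090. AT5G25410 gave 26733 and 23039.5 against at most 2096 elsewhere, in the chalazal endosperm, and AT1G56620 gave 19901 and 27665 against 1794 and 1957 from the peripheral endosperm. AT2G19150 was the dimmest of the 16, at 7398 and 7069, with no other array above 197. All 16 kept their calls in each of the 24 alternative settings.

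Chosen in the same way, below all 10 others, the 8 largest decreases ran from -3.61 to -4.38, with SEs of 0.35 to 0.45 and adjusted p from 1.72e-08 to 4.16e-06. AT1G78170 gave 5.1 and 9.29 on the micropylar arrays, 601 and 347 from the embryo proper, 154 and 199 from the peripheral endosperm, 304 and 445 from the chalazal endosperm, 6857 and 5290.1 from the general seed coat and 3177 and 1518 from the chalazal seed coat. AT1G02305 gave 23.2 and 78 against 187 to 2364, and was lower by -3.97 (SE 0.39, adjusted p = 2.23e-07). AT1G32090 gave 19.1 and 8.14 against 85.1 to 4109.5, brightest in the chalazal endosperm, and was lower by -3.97 (SE 0.39, adjusted p = 2.12e-07). In all, 25 called probe sets were lower by as much, 12 of them without a single gene name and 5 others with arrays that overlapped.

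The only gene with a symbol among the 8 was bZIP44, a basic leucine-zipper transcription factor. It gave 7.41 and 5.99 on the micropylar arrays and 10147 and 9845 from the chalazal and 4942 and 5475 from the general seed coat. The peripheral endosperm gave 128 and 9.39 and the chalazal endosperm 16.4 and 103, so the gap was widest toward the seed coat. The micropylar values and the 9.39 and 16.4 all lie under 35.9, the 25th percentile of all values. Whether values so low differ from background was not tested. Of the 8, 5 were called against each of the other 5 singly. All 8 kept their calls in each of the 24 alternatives.

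**Figure D2:**
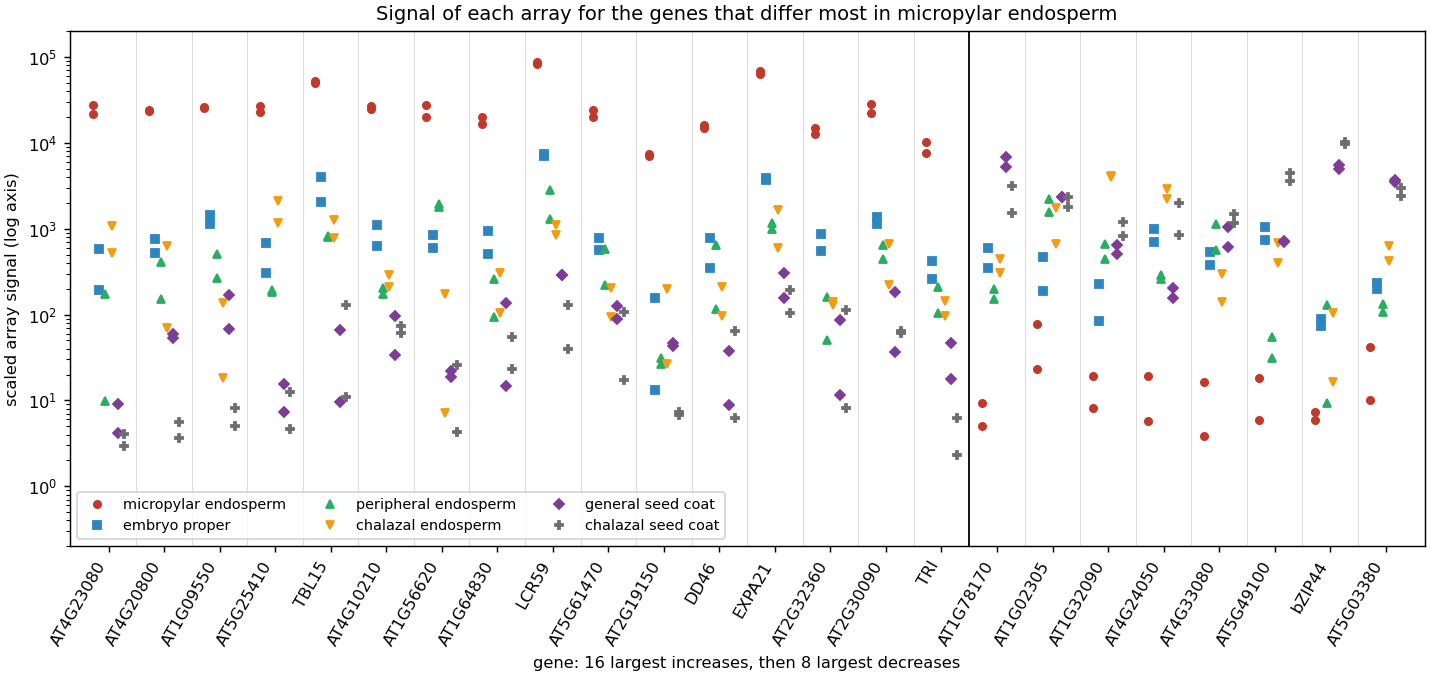
Scaled signal (log axis) of the 12 compartment arrays for the 16 genes with the largest increases and, right of the line, the 8 with the largest decreases in the micropylar endosperm. Each symbol is 1 array. The micropylar arrays (red circles) lie above all 10 others for the 16 and below them for the 8 because the genes were chosen for that, and the next brightest compartment is the embryo proper for 12 of the 16.

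Of 54 type I MADS-box genes listed, 26 had a probe set naming them alone and 18 were tested. Of these, 6 were called higher and 2 lower, beside 9.9% and 11.2% of all 9766 tested genes. The 6 include AGL57 and AGL48, markers picked with earlier results of these data in view, so the count only describes the list. AGL96 gave 14443 and 13472 on the micropylar arrays, 996 and 555 from the embryo proper, 917 and 428 from the peripheral endosperm, 474 and 86 from the chalazal endosperm, 26.7 and 107 from the general seed coat and 45.5 and 6.24 from the chalazal seed coat, and was higher by 5.90 (SE 0.49, adjusted p = 2.3e-08). AGL57 was higher by 5.72 (SE 0.46, adjusted p = 1.23e-08) and AGL48 by 5.23 (SE 0.44, adjusted p = 2.68e-08), from the levels given with the markers. In all 3 the 2 micropylar arrays stood above every other array by more than 10-fold.

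AGL95 gave 773 and 589 against 6.75 to 109.9 on the other 10 arrays, and was higher by 3.20 (SE 0.55, adjusted p = 0.000273). AGL59 gave 1350.2 and 1115 against 8.72 to 309, and was higher by 3.04 (SE 0.51, adjusted p = 0.000205). These 5 genes were called against each of the other 5 compartments singly, as were 1.84% of all tested genes. AGL29 was called against the mean, by 2.17 (SE 0.45, adjusted p = 0.0014), but its 329 and 194 overlapped the 187 and 421 of the peripheral endosperm.

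Other members were brighter in the chalazal and peripheral endosperm than in the micropylar region. AGL62, which holds back wall formation in the endosperm, gave 790.1 and 891 on the micropylar arrays, 3678 and 5237 from the peripheral and 5852 and 6469 from the chalazal endosperm, and was not called against the mean of the 5 (0.67, SE 0.38, adjusted p = 0.219). AT4G36590 gave 387 and 820.4, 2615 and 2903 and 10143 and 9402 in the same order. Against the chalazal endosperm alone, 6 of the 18 were higher and 9 lower, beside 13.3% and 10.3% of all tested probe sets. Against the peripheral endosperm alone 5 were higher and 7 lower, beside 6.05% and 6.13%. AGL62, AT4G36590, AT5G26630 and AT3G05860 are also on the list of chalazal endosperm markers, so their lower level there follows from that choice. Among the 14 others, 6 were higher and 5 lower against the chalazal endosperm, and 5 were higher and 3 lower against the peripheral endosperm. The 14 include AGL57 and AGL48, which were picked as markers of the micropylar region. Of all 18, 8 were higher and 0 lower against the embryo proper, beside 11.2% and 12.7% of all tested probe sets. Against the general seed coat 10 were higher and 0 lower, beside 11.7% and 16.1%.

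The 2 genes called lower against the mean were AGL87, at 14.7 and 23.6 against 936 and 1556 from the chalazal endosperm, and AT3G05860, at 264 and 113 against 13661 and 10674. Their differences were -2.39 (SE 0.62, adjusted p = 0.00813) and -1.54 (SE 0.43, adjusted p = 0.0132), and in both genes the micropylar arrays overlapped those of the embryo proper or seed coat. Without micropylar replicate 1 the list held 6 higher and 1 lower, and without replicate 2 it held 6 higher and 0 lower. Among MADS-box genes outside type I, AGL21 was higher by 1.56 (SE 0.42, adjusted p = 0.0101), at 141 and 128 against at most 58.7 elsewhere, a call lost in 4 of the 24 alternatives (adjusted p from 0.00548 to 0.0771).

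Of 20 endosperm regulators and imprinted genes, 6 were tested, 2 were higher and 0 lower, beside 9.9% and 11.2% of all genes. MPC, an imprinted gene, gave 1115 and 779 on the micropylar and 4653 and 5211 on the peripheral arrays, and was higher than the mean of the 5 by 1.63 (SE 0.43, adjusted p = 0.00892). ADMETOS (AT4G11940), an imprinted gene of endosperm, gave 390 and 387 against 57.1 to 466 on the other 10 arrays, a difference of 1.39 (SE 0.46, adjusted p = 0.0361). MPC was brighter in the peripheral than in the micropylar endosperm, and the ADMETOS arrays of these 2 regions overlapped. MPC lost its call without micropylar replicate 1 (adjusted p from 0.00373 to 0.111 over the alternatives), and ADMETOS lost its in 11 of 24 (adjusted p from 0.0188 to 0.154). SHB1, IKU1 and DME, which act on seed size or imprinting, were not called, with differences of 1.14 (SE 0.47, adjusted p = 0.086), -0.47 (SE 0.46, adjusted p = 0.502) and -0.47 (SE 0.37, adjusted p = 0.382). A dimmer probe set of DME was lower by -1.95 (SE 0.48, adjusted p = 0.00531), so its probe sets disagree.

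The list of signals between embryo and endosperm had 3 tested genes of 16, and none was called. Its receptor kinases GSO1 and CR4, which act in the embryo epidermis, gave 297 and 9.98 and 7.69 and 274 on the micropylar arrays. The 2 replicates differed more than 10-fold for each, so no level can be read for this region. Each of these 2 genes gained a call in 1 of the 24 alternatives. GSO1 gave 1351 and 1547 and CR4 538 and 797 from the embryo proper.

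Of 23 tested small secreted peptides 5 were higher and 6 lower, beside the 9.9% and 11.2% of all tested genes. Defensin-like LCR24 gave 97496 and 65082 on the micropylar arrays, 39935 and 36563 from the peripheral endosperm, 9370.2 and 10742 from the embryo proper, 8171 and 5154 from the chalazal endosperm, 462 and 868 from the general seed coat and 87.8 and 241 from the chalazal seed coat, and was higher by 4.66 (SE 0.28, adjusted p = 2.55e-10). LCR80, of the same class, gave 7054 and 4774 against 30.3 to 2571 on the other 10 arrays and was higher by 3.86 (SE 0.44, adjusted p = 1.82e-06). With LCR59 they made 3 defensin-like genes whose micropylar arrays lay above all 10 others. The same held for 4 of the 23 peptide genes and for 7.38% of all tested probe sets. Only 2 of the 23, LCR59 among them, were called higher than each of the other 5 singly, beside 1.84% of all tested genes. RALFL18, a peptide of the rapid alkalinization factor family, gave 5218 and 4443 against 13.4 to 1056, and was higher by 4.30 (SE 0.42, adjusted p = 2.26e-07).

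Other peptides of the same 2 families were lower in the micropylar endosperm. LCR69 gave 41.6 and 13 against 11439 and 14129 from the chalazal seed coat, and was lower by -3.33 (SE 0.74, adjusted p = 0.00282). RALFL28 gave 50.7 and 33.3 against 25988 and 25089.9 from the chalazal endosperm, and was lower by -2.64 (SE 0.43, adjusted p = 0.000159). RALFL33 gave 17 and 17.1, below all 10 other arrays (83.8 to 868), and was lower by -2.50 (SE 0.59, adjusted p = 0.00442). FER, a receptor kinase that binds peptides of this family, gave 205 and 68.1 against 855 and 3958 from the general and 2213 and 1741 from the chalazal seed coat, and was lower by -1.96 (SE 0.60, adjusted p = 0.0227). Without micropylar replicate 1 the peptide group held 5 higher and 4 lower, and without replicate 2 it held 5 and 2. LCR69 lost its call without replicate 2 and FER lost its in 3 settings, that one included (adjusted p from 0.000202 to 0.0637 and from 0.00177 to 0.292 over the alternatives).

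Of 18 tested TBL genes, which act on wall polysaccharides, 4 were higher and 3 lower, beside 9.9% and 11.2% of all genes. TBL42 gave 37647 and 41161 on the micropylar arrays, 5400.2 and 5394 from the peripheral endosperm, 4359.6 and 4204 from the chalazal endosperm, 2845 and 1956 from the embryo proper, 48.9 and 267 from the general seed coat and 11.8 and 9.76 from the chalazal seed coat, and was higher by 5.55 (SE 0.35, adjusted p = 4.81e-10). TBL41 gave 97816 and 94849.6 on the micropylar and 44539 and 56809.6 on the chalazal endosperm arrays, and was higher than the mean by 4.26 (SE 0.27, adjusted p = 4.81e-10), although not called against the chalazal endosperm at 2-fold. TBL16 was dimmer, at 938 and 1267 against 3.01 to 273, and was higher by 3.21 (SE 0.56, adjusted p = 0.000271). With TBL15, itself picked as a marker, they made 4 of the 18 members whose micropylar arrays lay above all 10 others. The share over all tested probe sets was 7.38%.

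TBL38, TBL35 and TBL26 were lower. TBL38 gave 92 and 16.8 against 11292 and 9896 from the chalazal and 5125 and 3632 from the general seed coat, and was lower by -2.87 (SE 0.53, adjusted p = 0.000522). TBL35 gave 5.06 and 76.2 against 10.3 to 1018 on the other 10 arrays, and its 2 replicates differed by over 10-fold. It was lower by -2.18 (SE 0.49, adjusted p = 0.00295), a call lost without micropylar replicate 1 (adjusted p from 0.000981 to 0.108). TBL26 gave 76.1 and 9.55 against 1555 and 1409 from the general seed coat and was lower by -1.47 (SE 0.47, adjusted p = 0.0284), but lost its call in 4 of the 24 alternatives (adjusted p from 0.0172 to 0.377).

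Expansins and XTH enzymes, which remodel walls, had 2 of 17 tested members higher and 3 lower, near the 9.9% and 11.2% of all genes. The 3 lower became 1 without micropylar replicate 2, and EXPA15 lost its call in 16 of the alternatives (adjusted p from 0.0129 to 0.587). EXPA21 stood apart from the others, and the only other increase was XTH26, by 1.42 (SE 0.46, adjusted p = 0.0328), at 167 and 211 against 5.97 to 154. EXLA1 gave 391 and 408 against 15823 and 14675 from the general seed coat, and was lower than the mean by -1.88 (SE 0.28, adjusted p = 4.8e-05), while the embryo proper (129 and 62.3) and peripheral endosperm (134 and 127) lay below the micropylar arrays. Among 6 tested pectin enzymes, PME39 (AT4G02300), a pectin methylesterase, gave 2817 and 3603 against 15.5 to 338 and was higher by 4.76 (SE 0.53, adjusted p = 1.43e-06). Its 2 micropylar arrays lay above all 10 others. PME61 and PMEAMT were called lower, by -1.26 (SE 0.44, adjusted p = 0.0464) and -1.22 (SE 0.42, adjusted p = 0.0398), calls lost in 16 and 14 of the 24 alternatives (adjusted p from 0.0202 to 0.393 for PME61 and from 0.00768 to 0.31 for PMEAMT). The 2 became 1 without micropylar replicate 1 and 0 without replicate 2 or with array quality weights. EXPA21, PME39 and EXLA1 kept their calls in all 24 alternatives, while XTH26 lost its in 8 (adjusted p from 0.0141 to 0.199).

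Glycoside hydrolases, mostly of the BGLU and GH9 families, had 1 of 30 tested members higher and 9 lower, beside 9.9% and 11.2% of all genes. BGLU40 gave 70.8 and 13.3 against 2319 and 3699 from the chalazal seed coat, 1056 and 1350.1 from the general seed coat and 837 and 564 from the chalazal endosperm, and was lower by -2.41 (SE 0.43, adjusted p = 0.000357). Its levels in the embryo proper (44.1 and 11.8) and peripheral endosperm (22.9 and 8.78) overlapped those of the micropylar arrays. GH9A3 gave 129.9 and 145 against 2403 and 4668 from the general seed coat, and was lower by -2.04 (SE 0.43, adjusted p = 0.00166). BGLU15 gave 571 and 815 against 9069 and 10256 from the peripheral endosperm, and was lower by -1.66 (SE 0.29, adjusted p = 0.000323). In GH9A3 the micropylar arrays overlapped the peripheral endosperm, and in BGLU15 the embryo proper. The 9 became 4 without micropylar replicate 1 and 6 without replicate 2.

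**Figure D3:**
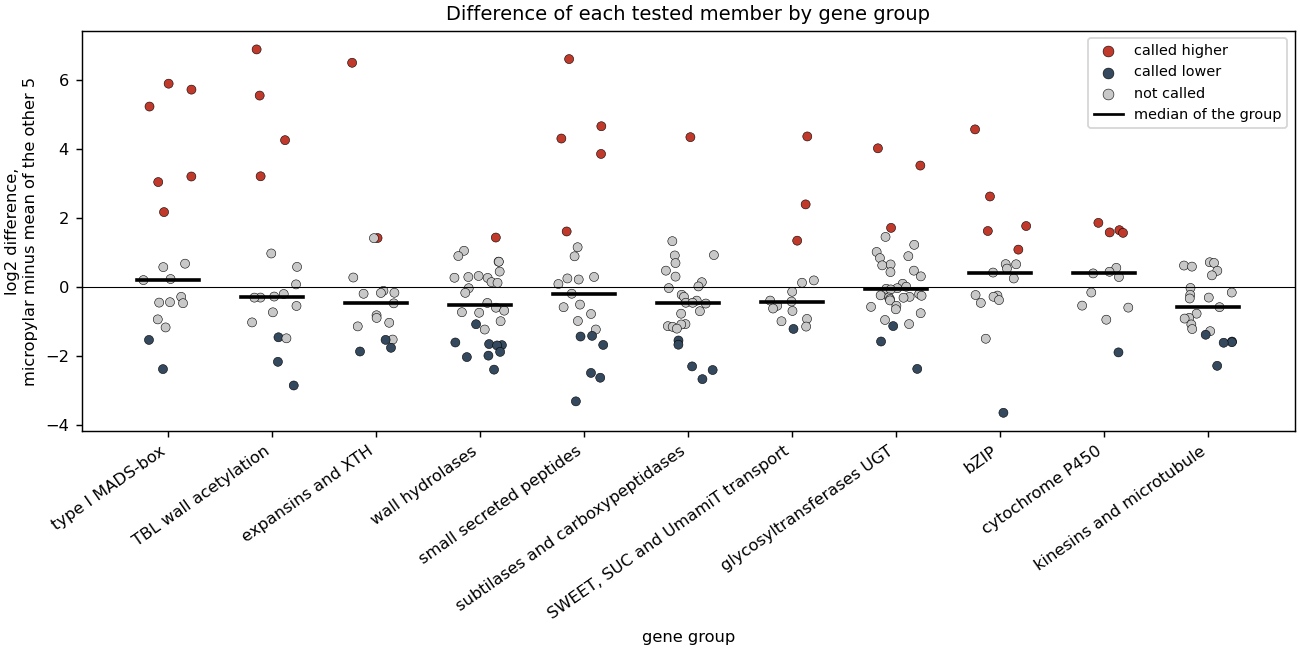
Difference on the log2 scale between the micropylar endosperm and the mean of the other 5 compartments for each tested member of 11 gene groups, coloured by call, with the group median as a bar. Type I MADS-box, TBL and small secreted peptide genes reach above 5 while their medians are 0.21, -0.30 and -0.20, and the median over all tested probe sets is -0.045.

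Among 28 tested subtilases and serine carboxypeptidases, which are proteases, 1 was higher and 5 lower, beside 9.9% and 11.2% of all genes. The only increase was SBT5.4, a subtilase. It gave 6004 and 8582 on the micropylar arrays and 3588 and 3685 from the peripheral endosperm, and was higher by 4.34 (SE 0.50, adjusted p = 2.08e-06). SBT1.3 gave 238 and 181 against 20769.5 and 14334 from the general seed coat, and was lower by -2.68 (SE 0.53, adjusted p = 0.000869). The peripheral endosperm had SBT1.3 at 225 and 283, which overlapped the micropylar arrays. ALPHA-VPE, a vacuolar processing protease picked here after its values were seen, gave 847 and 537 against 7.16 to 218 and was higher by 3.26 (SE 0.56, adjusted p = 0.000227).

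Genes of the endoplasmic reticulum (ER), where secreted proteins fold, were gathered into a list of 22 after their values were seen, so its count only describes them. Of the 22, 15 were higher and 0 lower, beside 9.9% and 11.2% of all genes. Their median difference was 1.40, against -0.045 over all tested probe sets. ATERDJ3B, a chaperone of the ER lumen, gave 57304 and 61652 on the micropylar arrays, 13515 and 9216 from the embryo proper, 13189 and 15338 from the peripheral endosperm, 11384 and 10549 from the chalazal endosperm, 15736 and 15159 from the general seed coat and 7527 and 5138 from the chalazal seed coat. It was higher by 2.42 (SE 0.18, adjusted p = 3.82e-09), with the micropylar arrays above all 10 others and the chalazal seed coat lowest.

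ATERDJ2B, a partner of the channel through which proteins enter the ER, gave 4322 and 4095 against 229 to 1529, and was higher by 2.70 (SE 0.38, adjusted p = 2.46e-05). SPP, a signal peptide peptidase, gave 7557 and 6296 against 447 to 2525, and was higher by 2.86 (SE 0.36, adjusted p = 6.99e-06). GPT, which starts the lipid-linked sugar used for N-glycosylation, gave 1570 and 4524 against 218 to 803, and was higher by 2.61 (SE 0.40, adjusted p = 6.28e-05). With ATERDJ3B and RAB6A, a GTPase of Golgi transport that gave 3981 and 2628 against 294 to 1866, these were the 5 members called against each compartment singly. The share over all tested genes was 1.84%.

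The calreticulin CRT1b gave 13919 and 21269 against 2131 to 9652 and was higher by 1.79 (SE 0.20, adjusted p = 1.21e-06). DER2.1, of the Derlin family that acts in removal of misfolded proteins, gave 1058 and 946 against 106 to 351 and was higher by 2.12 (SE 0.40, adjusted p = 0.000688). The SEC31B coat gene AT3G63460 of ER export gave 2702 and 5203 against 296 to 2271 and was higher by 2.06 (SE 0.32, adjusted p = 9.98e-05). The chalazal endosperm was the compartment nearest to the micropylar level for this list, with 8 members higher and 2 lower in the micropylar endosperm against it, compared with 15 and 0 against the peripheral endosperm.

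Not every ER gene was higher. BZIP60 and BZIP28, transcription factors of the unfolded protein response, gave 1344 and 858 and 1400 and 834 on the micropylar and 3334 and 3328 and 2361 and 2615 on the chalazal endosperm arrays, and were not called against the mean (0.66, SE 0.35, adjusted p = 0.185 and 0.53, SE 0.34, adjusted p = 0.287). The count of 15 became 10 without micropylar replicate 1 and 10 without replicate 2, where 1 member was also called lower, and 9 of the 15 kept their calls in all 24 alternatives. DER1 was higher by 1.85 (SE 0.43, adjusted p = 0.00355), a call lost without micropylar replicate 1 (adjusted p from 0.00168 to 0.0643), while its second probe set was not called at 1.40 (SE 0.51, adjusted p = 0.0539).

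Actin genes, also gathered after their values were seen, had a median of -1.04. Of the 21, 2 were higher and 10 lower, beside 9.9% and 11.2% of all genes. NET3A, of a family that links actin to membranes, gave 2717 and 2950.3 on the micropylar arrays, 446 and 270.2 from the embryo proper, 324 and 288 from the peripheral endosperm, 22 and 31.9 from the chalazal endosperm, 44.7 and 58.7 from the general seed coat and 6.14 and 63.1 from the chalazal seed coat, and was higher by 4.40 (SE 0.51, adjusted p = 2.28e-06). Its relative NET1C gave 131 and 178 against 414 to 2417 and was lower than each other compartment, by -2.58 (SE 0.34, adjusted p = 1.11e-05) against their mean. NET1B gave 15.8 and 68.1 against 94.2 to 956 and was lower by -2.18 (SE 0.43, adjusted p = 0.000909). Members of this family thus lay on both sides of every other compartment.

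The LIM-domain actin bundlers WLIM2a and WLIM2b were lower by -2.07 (SE 0.39, adjusted p = 0.000617) and -1.95 (SE 0.37, adjusted p = 0.000679). WLIM2a gave 110.4 and 158, below all 10 other arrays (218 to 1108), and WLIM2b gave 538 and 273, overlapping the peripheral endosperm at 269.9 and 503. The class XI myosin XIH, a motor along actin, gave 18.1 and 20.0 against 14.2 to 665 and was lower by -2.34 (SE 0.56, adjusted p = 0.00445), with 1 peripheral array below the micropylar arrays. PIR121 and BRK1, subunits of the SCAR/WAVE complex that starts actin branching, and SPK1, which acts upstream of it, were lower by -1.81 (SE 0.43, adjusted p = 0.00446), -1.83 (SE 0.54, adjusted p = 0.0187) and -1.56 (SE 0.39, adjusted p = 0.00644). PIR121 lost its call without micropylar replicate 1, SPK1 lost its without replicate 2, and BRK1 lost its in 3 of the 24 alternatives (adjusted p from 0.00144 to 0.0702, 0.00103 to 0.0793 and 0.00568 to 0.261). The counts of the list were 1 higher and 9 lower without replicate 1, and 1 and 7 without replicate 2.

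Microtubule and kinesin genes had 0 of 23 tested higher and 5 lower, beside 9.9% and 11.2% of all genes, and 3 lower without either micropylar array. TUB7, a beta-tubulin, gave 712 and 419 on the micropylar arrays, 6176 and 6482 from the embryo proper, 1881 and 3093 from the peripheral endosperm, 1159 and 768 from the chalazal endosperm, 4172 and 3805 from the general seed coat and 3296 and 2901 from the chalazal seed coat, and was lower by -2.29 (SE 0.30, adjusted p = 1.09e-05). It was the only member of the 5 that kept its call in all 24 alternatives, and its micropylar arrays lay below all 10 others. None of 7 tested cell cycle genes, 6 histones and 4 autophagy genes was called. KEU, needed for wall formation at cell division, was at 3586 and 3046 and was not called (0.66, SE 0.27, adjusted p = 0.0866). Of 7 tested subunits of the exocyst, which tethers secretory vesicles, 0 were higher, and the 2 lower ones, SEC5B and SEC15A, lost their calls in 4 and 3 of the alternatives (adjusted p from 0.00923 to 0.126 and from 0.0142 to 0.306).

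**Figure D4:**
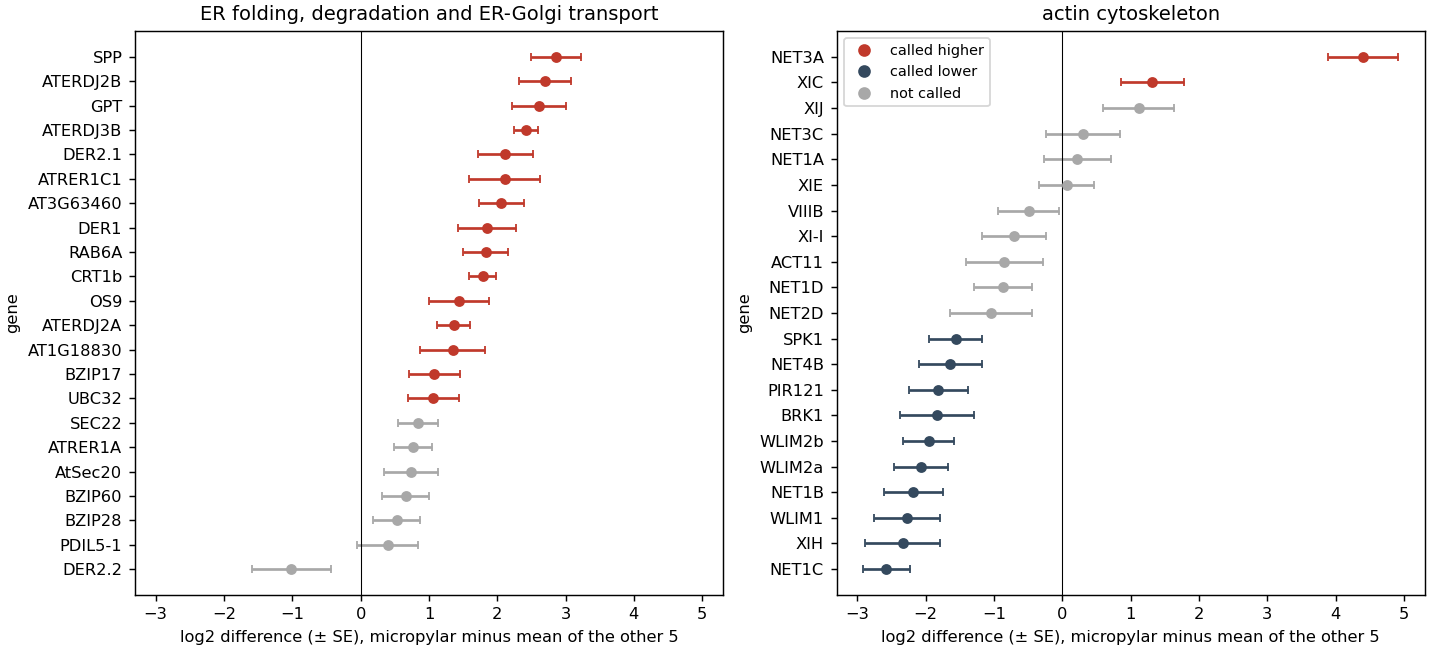
Difference on the log2 scale (points, bars are 1 SE of the fit) between the micropylar endosperm and the mean of the other 5 compartments for the 22 genes of ER folding, degradation and ER-Golgi transport and the 21 actin genes, both lists gathered after values were seen. Of the ER genes 15 are called higher and 0 lower, and of the actin genes 2 are higher and 10 lower. Over all tested genes 9.9% are higher and 11.2% lower.

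Photosystem transcripts encoded in the plastid genome were higher in the micropylar endosperm than in the mean of the other 5, with a median of 1.53. Of 20 tested genes 19 were called higher and 0 lower, beside 9.9% and 11.2% of all genes. psbK, for a small subunit of photosystem II, gave 50273 and 49303 on the micropylar arrays, 36432 and 30712 from the peripheral endosperm, 19855 and 20909.5 from the chalazal endosperm, 15366 and 14791 from the general seed coat, 14138 and 13328 from the chalazal seed coat and 7671 and 7357 from the embryo proper. It was higher by 1.63 (SE 0.14, adjusted p = 2.06e-08), and psbA, for the D1 reaction centre protein, gave 43688 and 51116 against 7226 to 31494 and was higher by 1.58 (SE 0.15, adjusted p = 1.1e-07). The peripheral endosperm was next in both, and the embryo proper was lowest. With quantile normalization between arrays both fell under the 2-fold limit, at 0.84 for psbK and 0.85 for psbA, with adjusted p still below 0.05 (from 4.45e-09 to 0.00165 and from 2.79e-08 to 0.00253 over the alternatives).

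Against the peripheral endosperm alone none of the 20 was called in either direction, with a median of 0.39. All 20 were higher against the embryo proper, 11 against the chalazal endosperm, 18 against the general seed coat and 19 against the chalazal seed coat. The shares of all tested probe sets higher in these comparisons were 11.2%, 13.3%, 11.7% and 13% in the same order. Of all genes encoded in the plastid, 34 of 69 tested were higher than the mean and 0 lower, beside 9.9% and 11.2% of all tested genes. Against the peripheral endosperm, 0 of the 69 were higher and 4 lower, beside 6.05% and 6.13% of all tested probe sets. Quantile normalization between arrays left 10 of the 20 and 20 of the 69 called. None of 16 genes encoded in the mitochondrion was called, although 1, ccb452, was called lower in 7 of the 24 alternatives, quantile normalization included.

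Nuclear genes for photosystems and light-harvesting proteins had 5 of 9 tested higher and 0 lower, beside 9.9% and 11.2% of all genes. PSAE-1, a subunit of photosystem I, gave 6159.8 and 6811 on the micropylar and 9283 and 11060.3 on the peripheral arrays, against 925 and 536 from the embryo proper, 1637 and 1057 from the chalazal endosperm, 322 and 569 from the general and 208 and 155 from the chalazal seed coat. It was higher than the mean by 2.70 (SE 0.36, adjusted p = 1.2e-05), with the peripheral endosperm above the micropylar arrays, as for LHCB4.1. LHCB4.1, an antenna protein of photosystem II, gave 4954 and 3791 and 5935 and 7510 in the same 2 regions and was higher by 1.66 (SE 0.34, adjusted p = 0.00122). Against the peripheral endosperm alone 0 of the 9 were higher and 2 lower, beside 6.05% and 6.13% of all tested probe sets. None of 9 tested genes of chlorophyll synthesis was called. Of 4 tested genes of carbon fixation 1 was called: rbcL, for the large subunit of Rubisco, was higher by 1.36 (SE 0.16, adjusted p = 2.17e-06), and by 0.61, under the 2-fold limit, with quantile normalization (adjusted p from 6.75e-07 to 0.0194 over the alternatives). PRK and SBPASE, enzymes of the Calvin cycle, gave 4184 and 2875 and 1699 and 1749.7 on the micropylar and 24366 and 20550.3 and 9366 and 7422 on the peripheral arrays. They were not called against the mean (0.45, SE 0.30, adjusted p = 0.292 and 0.61, SE 0.51, adjusted p = 0.429).

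**Figure D5:**
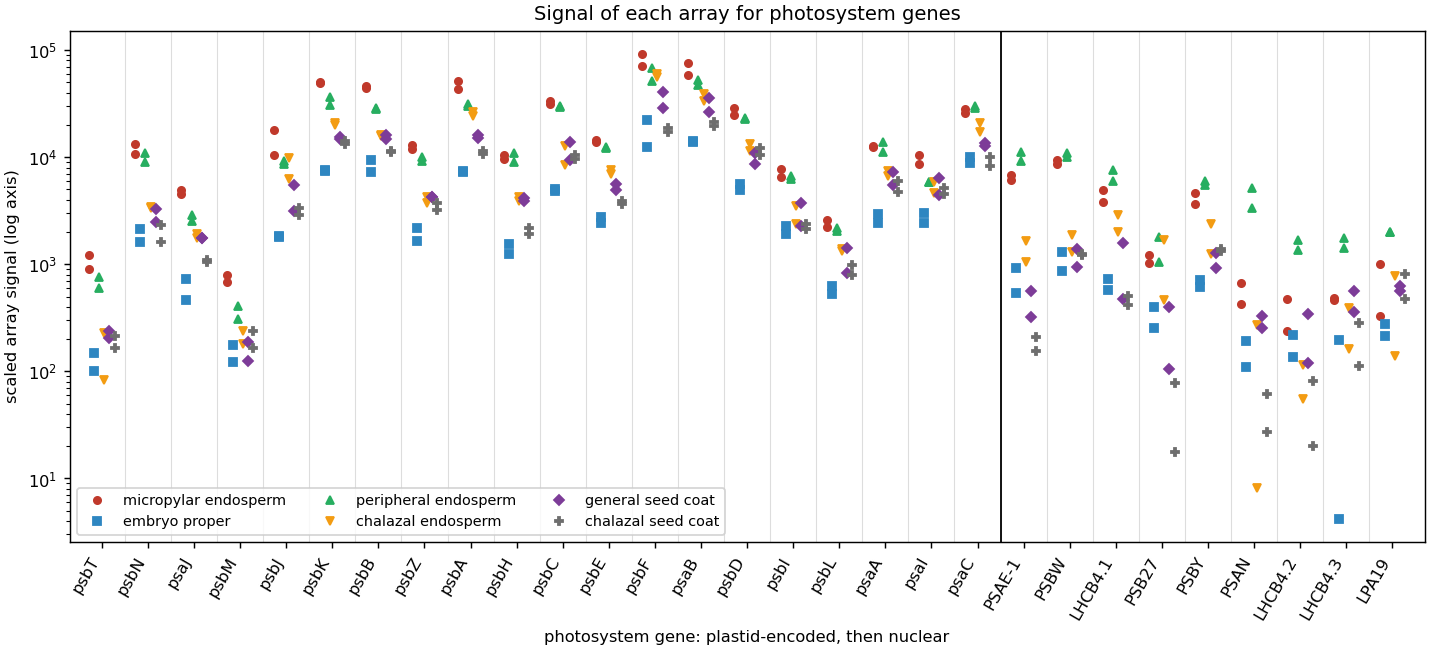
Scaled signal (log axis) of the 12 compartment arrays for 20 plastid-encoded and, right of the line, 9 nuclear photosystem and light-harvesting genes. For most plastid-encoded genes the micropylar endosperm (red circles) lies highest and the embryo proper lowest, and for all 9 nuclear genes the mean of the peripheral endosperm lies highest.

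Of 15 tested sugar and amino acid carriers, 3 were higher and 1 lower, beside 9.9% and 11.2% of all genes. SWEET8, a sugar carrier of the SWEET family, gave 25269.9 and 22329 on the micropylar arrays, 6163 and 6633 from the peripheral endosperm, 4843 and 6317 from the chalazal endosperm, 2423 and 2233 from the embryo proper, 37.7 and 165 from the general seed coat and 309 and 80.8 from the chalazal seed coat. It was higher by 4.36 (SE 0.37, adjusted p = 2.31e-08) and called against each of the other 5, standing 3.72-fold above the peripheral endosperm. TMT1, which loads hexoses into the vacuole, gave 1052 and 1241 against 4.05 to 578 and was higher by 2.39 (SE 0.42, adjusted p = 0.000277). SWEET6 was higher by 1.34 (SE 0.45, adjusted p = 0.0373) and TMT2, of the same class as TMT1, lower by -1.22 (SE 0.44, adjusted p = 0.0498), but these calls were lost in 12 and 19 of the 24 alternatives (adjusted p from 0.024 to 0.189 and from 0.0212 to 0.269).

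Auxin genes gave a few calls on each side. YUC11, of the family that makes auxin, gave 330.1 and 553 against 24.8 to 113 and was called against each other compartment, with a difference of 2.19 (SE 0.43, adjusted p = 0.000934). YUC6, of the same family, was brightest in the seed coat (555 and 883 from the general and 1719 and 839 from the chalazal), and stood at 22.3 and 32 in the micropylar endosperm, with a difference of -1.42 (SE 0.49, adjusted p = 0.0399) whose call was lost in 11 of the alternatives (adjusted p from 0.0168 to 0.405). UGT84B2 and UGT84B1 belong to a group of glucosyltransferases of which UGT84B1 is known to conjugate auxin. UGT84B2 gave 699.8 and 1911 against 6.67 to 119 and was higher by 4.02 (SE 0.57, adjusted p = 3.1e-05). UGT84B1 gave 2630.5 and 1699 on the micropylar and 1647 and 2482 on the peripheral arrays, which overlapped, and was higher by 3.52 (SE 0.54, adjusted p = 8.14e-05).

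Of the Aux/IAA repressors of auxin response, IAA29 gave 134 and 184 against 1.96 to 37.9 and was higher by 2.01 (SE 0.37, adjusted p = 0.000517). IAA31 gave 10.3 and 5.4 against 28.5 to 856 and was lower by -2.50 (SE 0.49, adjusted p = 0.000897). IAA29 lay above and IAA31 below all 10 other arrays, and both kept their calls in the 24 alternatives. Over the 35 tested UGT genes 3 were higher and 3 lower, under the 9.9% and 11.2% of all genes, with 2 and 1 without either micropylar array, and over 13 tested cytochrome P450 genes 4 were higher and 1 lower, none of which kept its call in all 24 alternatives. Without micropylar replicate 1, 0 of the P450 genes were higher, and without replicate 2 there were 2.

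Among transcription factors other than MADS-box genes, 5 of 17 tested bZIP genes were higher and 1, bZIP44, was lower. Over all tested genes the shares were 9.9% and 11.2%. AT2G12900, listed as bZIP33, gave 1403 and 1073 against at most 82.1 on the other 10 arrays, in the embryo proper, and was higher by 4.57 (SE 0.48, adjusted p = 5.81e-07). AT2G13150, listed as bZIP31, gave 694 and 682 against 23.5 to 256 and was higher by 2.62 (SE 0.44, adjusted p = 0.000214). bZIP19, known from the zinc deficiency response, gave 2278 and 1742 against 44.8 to 1438 and was higher by 1.76 (SE 0.40, adjusted p = 0.00332). Without micropylar replicate 1 the group held 2 higher and 2 lower, bZIP19 losing its call (adjusted p from 0.00018 to 0.0606), and bZIP33 and bZIP31 were among those that kept their calls in all 24 alternatives.

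WRKY6 gave 232 and 211 against 8.04 to 107 and was higher by 2.00 (SE 0.48, adjusted p = 0.00469), called against each other compartment. Of the 6 tested WRKY genes it was the only increase, beside 2 decreases that became 1 without either micropylar array. Of 7 tested B3 genes 3 were higher and 1 lower. For both families the shares over all tested genes were 9.9% and 11.2%. NGA1, of the NGATHA group, gave 367 and 92.1 on replicates that stood far apart, the lower within the range of the other arrays (7.04 to 95.1), and was higher by 1.64 (SE 0.51, adjusted p = 0.0252). None of the 4 B3 calls was kept in all 24 alternatives, and without micropylar replicate 1 there were 0 (NGA1 adjusted p from 0.0115 to 0.398).

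Markers of the seed coat had 0 of 4 tested members called higher and 3 lower than the mean of the 5. Over all tested genes the shares were 9.9% and 11.2%. Since 2 of the 5 compartments are seed coat, this direction follows from how the markers were picked. Taken singly, 4 were lower against the general and 3 against the chalazal seed coat, beside 16.1% and 17.7% of all tested probe sets. Against the embryo proper 1 was higher and 1 lower, against the peripheral endosperm 0 and 0, and against the chalazal endosperm 0 and 1. The shares of all tested probe sets in these comparisons were 11.2% and 12.7%, 6.05% and 6.13%, and 13.3% and 10.3%. DFR and BAN, enzymes of the flavonoid pathway that makes seed coat tannins, gave 2194 and 1386 and 283 and 308 on the micropylar and 32225 and 26570.1 and 4137 and 8810 on the general seed coat arrays. ARA12, a subtilase of the seed coat, gave 27.4 and 71.1 against 2874 and 2765. Their differences were -1.32 (SE 0.32, adjusted p = 0.00571), -1.42 (SE 0.47, adjusted p = 0.0341) and -2.42 (SE 0.48, adjusted p = 0.00107). The embryo proper gave 844 and 256 for DFR, the peripheral endosperm 1291 and 3087 and the chalazal endosperm 3984 and 4314, so the gap lay toward the seed coat and the micropylar arrays overlapped the peripheral ones. BAN lost its call in 10 of 24 alternatives (adjusted p from 0.00425 to 0.161), DFR lost its without micropylar replicate 2 (adjusted p from 0.000666 to 0.151), and the list held 2 lower without replicate 1 and 1 without replicate 2.

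The 79 probe sets lower than each compartment, a count that moved with single arrays as given above, named 43 genes. The 5 with a symbol were NET1C, LSM6A, Z-ISO, ATCOAE and CSN5B, singled out here for having one. CSN5B, a subunit of the COP9 signalosome, gave 12.9 and 25.6 against 124 to 6843 and was lower by -3.14 (SE 0.39, adjusted p = 6.2e-06). LSM6A, of a ring that acts on RNA, gave 728 and 705 against 1574 to 4289.9 and was lower by -1.82 (SE 0.25, adjusted p = 1.58e-05). In both the micropylar arrays lay below all 10 others. NRPE7, a subunit of the polymerase of RNA-directed DNA methylation, is not among the 79. It gave 6.27 and 27 against 102 to 389 and was lower than the mean by -2.27 (SE 0.44, adjusted p = 0.000822). It was the only call among 8 tested genes of polycomb and DNA methylation, whose median difference was -0.054.

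Genes next to each other on the chromosome were both higher than each other compartment in 6 of 3544 adjacent pairs with both genes tested. These pairs held 12 of the 180 genes higher than each, which are 1.84% of the 9766 tested genes. Whether such genes lie together more often than others was not tested. AT5G25410 and AT5G25415 were higher by 6.91 (SE 0.43) and 4.57 (SE 0.43). TRI and AT2G29340 were higher by 6.18 (SE 0.44) and 4.62 (SE 0.54), and AT4G23080 and AT4G23090 by 7.50 (SE 0.51) and 4.80 (SE 0.49). The other pairs were AT3G16960 with AT3G16970, AT4G31020 with AT4G31030 and AT1G56610 with AT1G56620, where the weaker member of each was higher by 2.91, 2.60 and 2.19. Whether the probe sets of a pair read the same transcript was not tested.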

How the data were processed

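Signal was measured on 14 ATH1 arrays, 2 for each of 6 seed compartments and whole seed. The authors deposited a linear intensity per probe set for every array. GCOS is named in the submitters' processing notes, and its algorithm was not given in the sources used here. Each array had been scaled, its mean with 2% trimmed at either end lying between 500.04 and 500.07. Precision is limited by having 2 arrays per group.

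Controls (64 of 22810 probe sets) were left out. Values were turned into log2(value + 35.8914), the added value being the 25th percentile of all values. Testing was limited to probe sets that exceeded the 40th percentile of the array on both arrays of some group. In the platform annotation 13513 probe sets had 1 gene, 503 had several and 8730 had none. Of the 13513, 13436 matched the TAIR10.1 gene table, which gave names and neighbours, and 77 did not. A gene was read from its probe set of highest mean. More than 1 probe set was tested for 115 genes, of which 30 had probe sets with different calls and 0 had opposite ones.

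All 14 arrays entered 1 linear model with a mean per group, using limma 3.58.1 (R 4.3.3) and variances moderated toward a trend with signal (7 residual and 13.4 prior degrees of freedom). Whole seed gave residual spread only. Tests are two-sided with Benjamini-Hochberg adjustment, and the code was tested on simulated data. Tables and figures used Python 3.11.15 with matplotlib 3.10.9. Same-numbered arrays did not deviate together (0 of 21 pairs of groups over a correlation of 0.1), so the replicate numbers were not taken to pair samples.

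Named genes were the 16 largest increases and 8 largest decreases whose arrays cleared all 10 others, up to 4 called members of each list or family by adjusted p, tested members of the fixed lists, the 3 markers, and adjacent genes higher than each compartment. Genes outside this rule were chosen after their values were seen, as were the lists for the ER, actin and the exocyst. Members and lists were all chosen with earlier results of these data known, and symbol families were trimmed of wrong matches after names were seen. The lists held 148 genes, of which 44 had a probe set naming them alone and 34 were tested. Of 34 families with at least 4 tested genes, 6 held no call. The alternatives were 3 other added values, no filter and a filter at the 60th percentile, quantile normalization, no variance trend, the 12 compartment arrays alone, the replicate number as a block, array quality weights, and leaving out each array.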

Additional observations from a re-analysis of the deposited data

How the results depend on the processing

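The counts higher and lower than the mean of the other 5 (1709 and 1988) and higher and lower than each (327 and 79) stayed within 1.5 times of these values in most of the 24 settings. Without an added value, 190 probe sets were higher than each. With array quality weights, which gave the micropylar arrays 0.664 and the embryo arrays 1.4, 1305 were lower and 1179 higher than the mean. Leaving out 1 array at a time gave 943 to 1862 higher and 1165 to 2227 lower than the mean, 226 to 323 higher than each and 44 to 122 lower than each. The lowest of the first 2 counts came without micropylar endosperm replicate 2, and 871 of the 943 and 937 of the 1165 were also called with all arrays. The 226 came without peripheral endosperm replicate 2 and the 44 without either peripheral endosperm array. The 122 came without micropylar endosperm replicate 1, and 49 of them were also called with all arrays. When an array is left out, the lone array of its group is assumed to vary like the other groups. With the replicate number as a block the 4 counts were 1695, 1973, 328 and 77, and same-numbered arrays shared only a number. Over 552 genes followed through the alternatives, 460 values lost a call, 77 gained one, 0 changed sign while called and 12602 kept their side of the threshold. With 2 arrays in the region, calls near the thresholds rest on each of them.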
